A study of Rattus norvegicus with 4 samples.

Results

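The cytosolic ribosomal protein genes are described here in 2 epithelia of the rat mouth. Members were chosen by gene symbol alone: every probe set to which the array's annotation gives a single symbol of the Rpl, Rps, Rplp or Rpsa series was taken, without the S6 kinase genes, and a gene with several such probe sets was represented by the one with the highest mean signal. This gave 44 genes from 50 probe sets, among 14217 genes measured in all. The group holds 30 genes of the large subunit and 14 of the small subunit.

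A cytosolic ribosome consists of a large subunit, which joins amino acids, and a small subunit, which reads the mRNA, each built from ribosomal RNA and a set of proteins needed in equal numbers. The mRNAs of these proteins belong to the most abundant of any growing cell. Most begin with a run of pyrimidines, the 5′ terminal oligopyrimidine (TOP) tract, through which the kinase complex mTORC1 sets how much of each mRNA is translated, so that the amount of mRNA and the output of protein can part. Oral epithelium renews itself quickly and needs a steady supply of ribosomes.

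Expression was measured on Affymetrix arrays in 2 samples of peri-implant epithelium, the soft tissue seal around a titanium alloy implant, and in 2 samples of junctional epithelium, the seal around a tooth. The animals were male Sprague-Dawley rats obtained at 4 weeks of age, from which the left upper first molar was extracted and in which the implant was placed. Tissue came from 20 rats killed 4 weeks after placement. The labels give the same treatment, extraction and implant placement, to both groups, and epithelium was cut from frozen sections by laser microdissection. The labels do not state whether a sample is 1 animal or a pool, so every p-value measures the spread between these arrays, which may be technical.

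Signals are log2 values, and all differences are peri-implant minus junctional on that scale. With 2 arrays a group, precision is limited by their number. As background serves a level of 6.42, above which none of 27 control probe sets for bacterial genes lay. Of 20 epithelial marker genes listed, 16 were measured and all 16 exceeded background in at least 1 of the groups. Krt5 and Krt14, keratins of basal cells, had signals of at least 15.7 on every array. By the test below, 3 of the 16 were higher in peri-implant epithelium (18.8%) and 2 lower (12.5%), against 7.39% and 5.34% of all genes. The 3 were Krt17 (1.83), Krt15 (0.42) and Krt4 (0.41), and the 2 were Krt10 (-2.63) and Krt1 (-0.57). The median difference of the 16 was 0.18. Of 22 measured leukocyte markers, 10 were higher in peri-implant epithelium by the test below and 0 lower, with a median difference of 1.15 and median signals of 8.18 and 8.21 on the peri-implant arrays, against 7.23 and 7.03 on the junctional arrays. In 16 of the 22 the mean exceeded background in at least 1 of the groups, and 6 were under it in both (Ms4a1 and Cd79b of B cells, Cd3e of T cells, Cpa3 of mast cells, and the myeloid genes Itgam and Cd163). The T cell genes Cd2, Cd3g, Cd4 and Cd8a exceeded background in peri-implant epithelium, with means of 7.73, 7.04, 7.25 and 6.70. Their means in junctional epithelium were 5.57, 5.78, 5.83 and 5.67, and of these genes Cd2 passed the test. The other leukocyte markers that passed were the myeloid genes Cxcr2 (1.42), Csf1r (1.42), Aif1 (1.26) and Csf3r (0.78), and Coro1a, Laptm5, Lcp1, Cd53 and Ptprc. Among 14 measured genes of connective tissue, vessels and muscle, 2 were higher and 1 lower (median difference 0.03), and among 11 proliferation genes 1 was higher and 1 lower (median 0.12). The part of a different mix of cells in the values below was not tested, and in such samples fewer cells of a type and less RNA per cell cannot be told apart.

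Ribosomal protein genes differed little between the epithelia. Of the 44 members, 3 passed the test as higher in peri-implant epithelium (Rps13, Rps15 and Rpl34) and 0 as lower, against 7.39% of all genes called higher and 5.34% called lower. The test was limma with an intensity trend and a robust prior, with Benjamini-Hochberg adjustment over all 14217 genes and a threshold of 0.05. The members' share, 6.82%, was thus near that of all genes. With limma's default prior 0 members and 0 of all genes passed, although 1 member and 2861 genes had an unadjusted p under 0.05. The median difference over the members was 0.13, against 0.05 over all genes.

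Of the members, 39 had a bright probe set, with a mean signal of 11.2 to 15.7, and 5 had a dim one, with a mean from 1.47 to 7.45; a mean of 9 was taken as the boundary after the values were seen. Signals of different probe sets depend on the probes as well as on the RNA, so they are not compared as levels. Among the 39 bright members, differences ran from 0.0002 for Rps15a to 0.30 for Rps15. The highest upper limit of a 95% interval of the fit was 0.49, a 1.40-fold difference, and the lowest lower limit was -0.22. These limits hold under the trend and robust prior. Intervals with the default prior, where the lowest adjusted p of a bright member was 0.35 (limma), are not given. Spread between replicates was small for these probe sets, with a median SD of 0.09, close to the 0.08 of all genes with a mean above 11. The 26 bright members of the large subunit had a median difference of 0.11 and the 13 of the small subunit one of 0.15.

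**Figure D1:**
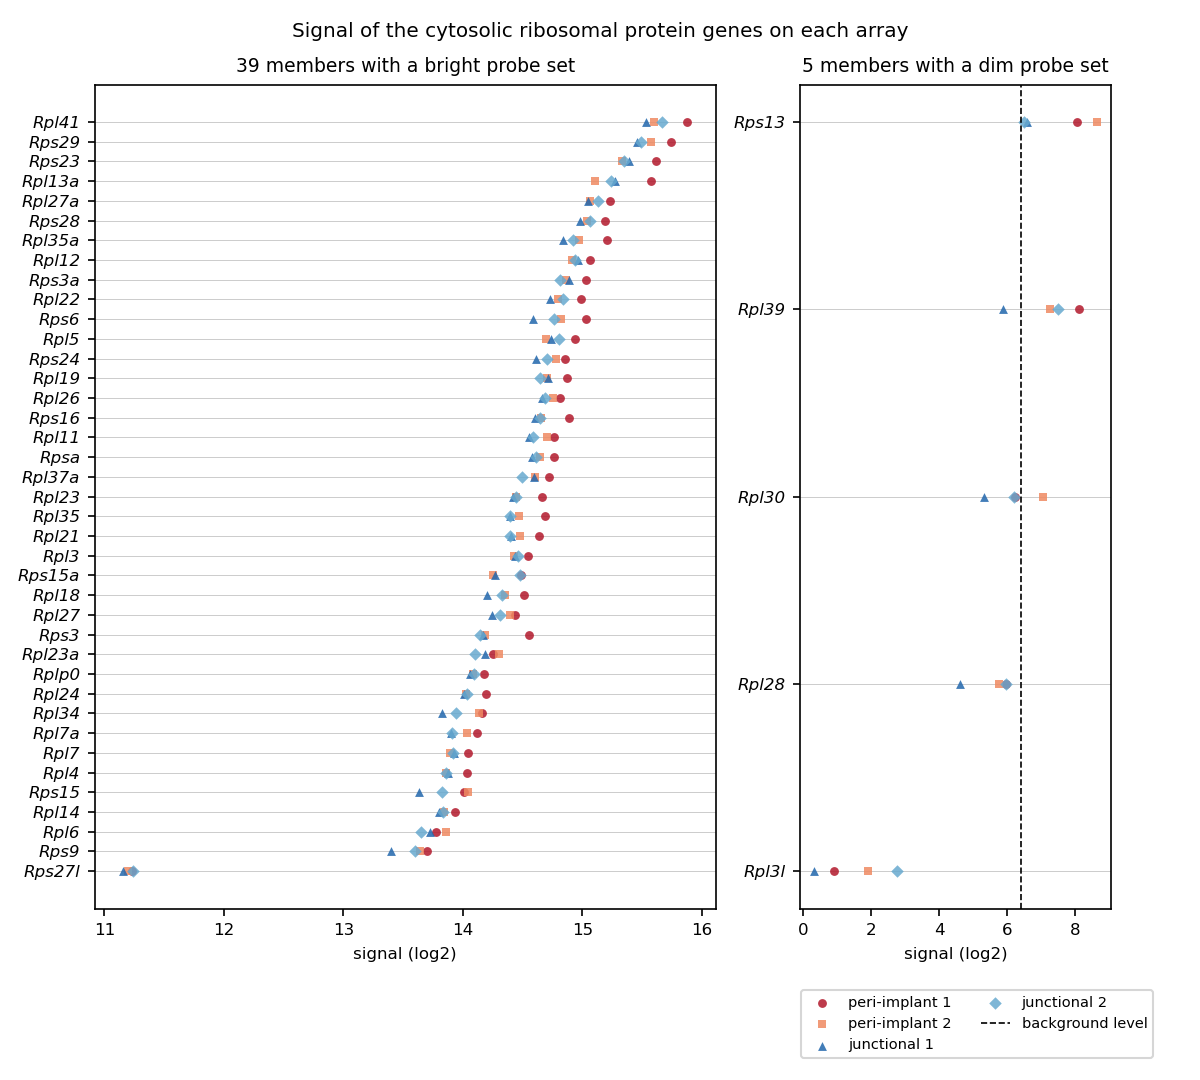
Log2 signal of each member on the 4 arrays, as points by array, with 39 bright members on the left and 5 dim members on the right (dashed line, background level of 6.42; the x axes differ). Peri-implant array 1 (dark red circles) is the highest of the 4 arrays for 35 of the 39 bright members, and the other 3 arrays lie close together.

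Among the bright members, 1 array carried most of the common shift. Peri-implant array 1 gave the highest signal for 35 of the 39 bright members, and it lay above peri-implant array 2 for 36 of them. The median bright signal was 14.69 and 14.48 on the peri-implant arrays, against 14.43 and 14.47 on the junctional arrays. By this median peri-implant array 2 lay near both junctional arrays. It was above both for 21 of the 39 bright members and below both for 7. In 24 of 39 bright members the gap between the peri-implant replicates exceeded the difference between the epithelia. Both peri-implant arrays lay above both junctional arrays for 23 of all 44 members and below them for 0, against 31.2% and 25.2% of all genes without overlap in those directions. Without peri-implant array 1 the median difference of the 44 members was 0.06, against 0.08 over all genes, and 33 members had a positive difference, against 43 with all arrays. Without peri-implant array 2 the members' median was 0.20.

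Other features of the same brightness moved with that array. The 18 hybridization controls are probe sets for bacterial and phage transcripts added to the labelled material in fixed amounts. Several probe sets read each of these transcripts (bioB, bioC, bioD and cre), so they are not independent readings. Their mean was 14.03 and 13.70 on the peri-implant arrays, against 13.70 and 13.76 on the junctional arrays. Peri-implant array 1 stood above the 4-array mean by a median of 0.13 for the bright members, 0.26 for the hybridization controls and 0.08 for 139 other genes with a mean at least that of the dimmest of the bright members other than Rps27l. Those 139 genes had a median difference between the epithelia of 0.04, and -0.04 without peri-implant array 1. For the 39 bright members it was 0.12, and 0.03 without that array, so they lay above equally bright genes in both settings. The part of the array's scale in the members' shift was not tested. Shifting the arrays to equal hybridization controls, or to equal medians, adds 1 constant to each array and moves all genes alike. The members' median was then -0.0097 or 0.08 and that of all genes -0.09 or -0.0009, so the sign of the members' own median is set by the constant, while their median stayed 0.08 above that of all genes, as in the values without it. That distance was 0.02 under quantile normalization, 0.11 under cyclic loess, 0.15 without peri-implant array 2 and -0.02 without peri-implant array 1.

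**Figure D2:**
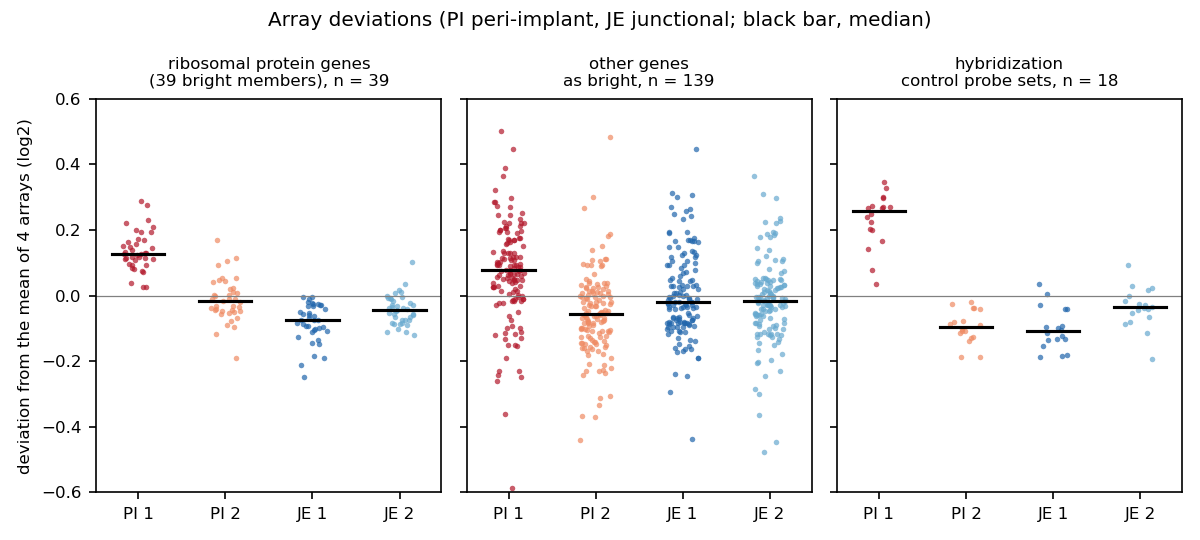
Deviation of each feature on each array from its mean over the 4 arrays (log2), for 39 bright ribosomal protein genes, 139 other genes as bright and 18 hybridization controls (points; black bars, medians; PI, peri-implant; JE, junctional). On peri-implant array 1 the medians are 0.13, 0.08 and 0.26, and 3 of the 139 other genes have a value outside the axis.

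**Figure D3:**
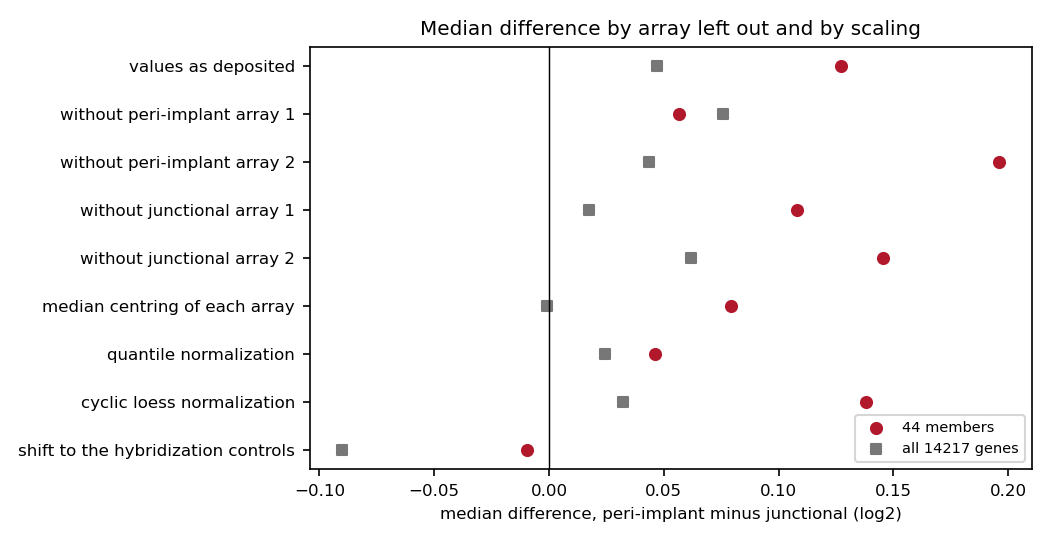
Median difference, peri-implant minus junctional (log2), of the 44 members (circles) and of all 14217 genes (squares), with each array left out and with each scaling. The members' median lies between -0.0097 and 0.20 and falls below that of all genes in 1 of the settings shown, without peri-implant array 1.

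Rps15, a small subunit protein near the site where mRNA is decoded, had signals of 14.01 and 14.05 on the peri-implant arrays, against 13.63 and 13.82 on the junctional arrays. The groups did not overlap, and the difference of 0.30 (SE 0.08) was 1.23-fold (limma, adjusted p = 0.0428, and 0.35 with the default prior). Rpl34, a large subunit protein, had 14.16 and 14.13 on the peri-implant arrays, against 13.82 and 13.94 on the junctional arrays. Here too the groups were apart, by 0.26 (SE 0.07), or 1.20-fold (adjusted p = 0.0453, and 0.359 with the default prior). Both genes kept their direction in all 15 alternatives run for single members. However, leaving out any 1 of the 4 arrays ended both calls, with adjusted p from 0.115 to 0.317 for Rps15 and from 0.111 to 0.319 for Rpl34, in fits with a single residual degree of freedom. Shifting arrays to the hybridization controls gave differences of 0.17 and 0.13, with adjusted p = 0.615 and 0.715.

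Rps13, a small subunit protein, showed the largest difference of any member, and it came from a dim probe set. Its signals were 8.06 and 8.63 on the peri-implant arrays, against 6.60 and 6.50 on the junctional arrays, which lay just above the background level. The difference was 1.80 (SE 0.31), or 3.48-fold (limma, adjusted p = 0.0077, and 0.13 with the default prior). It did not pass without peri-implant array 2 (adjusted p = 0.103) or without either junctional array (0.0877 and 0.0857), but passed without peri-implant array 1 (0.0494). A brighter probe set exists whose annotation names Rps13 together with 3 copies or pseudogenes, and which therefore cannot be given to 1 gene. That probe set read 14.28 and 14.25 on the peri-implant arrays, against 14.03 and 14.07 on the junctional arrays, a difference of 0.22. The dim and the shared probe set thus agreed in direction but not in size.

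None of the other dim members passed the test. Rpl39, a protein of the tunnel through which the growing chain leaves, had 8.12 and 7.26 on the peri-implant arrays, against 5.87 and 7.50 on the junctional arrays, and the groups overlapped. Rpl30 read 6.23 and 7.04 on the peri-implant arrays, against 5.31 and 6.19 on the junctional arrays, and only peri-implant array 2 exceeded background. Rpl28 was under background on all arrays, with 5.95 and 5.77 on the peri-implant arrays, against 4.61 and 5.96 on the junctional arrays. Of these, Rpl30 and Rpl28 also appear on bright probe sets shared with copies or other genes, where differences ran from 0.09 to 0.12. Rpl3l, the paralogue of Rpl3 known from striated muscle, had 0.90 and 1.90 on the peri-implant arrays, against 0.33 and 2.76 on the junctional arrays, far below background in both epithelia. Adjusted p for these 4 genes ran from 0.256 to 0.97.

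After Rps15 and Rpl34, the bright members with the largest differences and no overlap of the groups were Rps6, Rps3, Rpl35a, Rpl35, Rps29 and Rpl18, and none of them passed. Rps6, the small subunit protein phosphorylated by the S6 kinases downstream of mTORC1, had 15.03 and 14.82 on the peri-implant arrays, against 14.59 and 14.76 on the junctional arrays, a difference of 0.25 with a 95% interval of 0.05 to 0.45 (adjusted p = 0.104). Rps3, which sits where mRNA enters the small subunit, had 14.55 and 14.18 on the peri-implant arrays, against 14.17 and 14.14 on the junctional arrays. Its difference of 0.21 rested on peri-implant array 1 and was 0.03 without it. Rpl35a, a large subunit protein mutated in some cases of Diamond-Blackfan anaemia in humans, had 15.21 and 14.97 on the peri-implant arrays, against 14.84 and 14.92 on the junctional arrays (0.21, and 0.09 without peri-implant array 1). Rpl35, which lies at the exit of the tunnel, differed by 0.19, Rps29 by 0.18 and Rpl18 by 0.17, and without peri-implant array 1 these were 0.08, 0.10 and 0.09. Without peri-implant array 2 the differences of the 6 genes ran from 0.25 to 0.40. Rps6 and Rps29 passed under cyclic loess (adjusted p = 0.0481 and 0.0399), and Rps3 without peri-implant array 2 (0.0387).

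**Figure D4:**
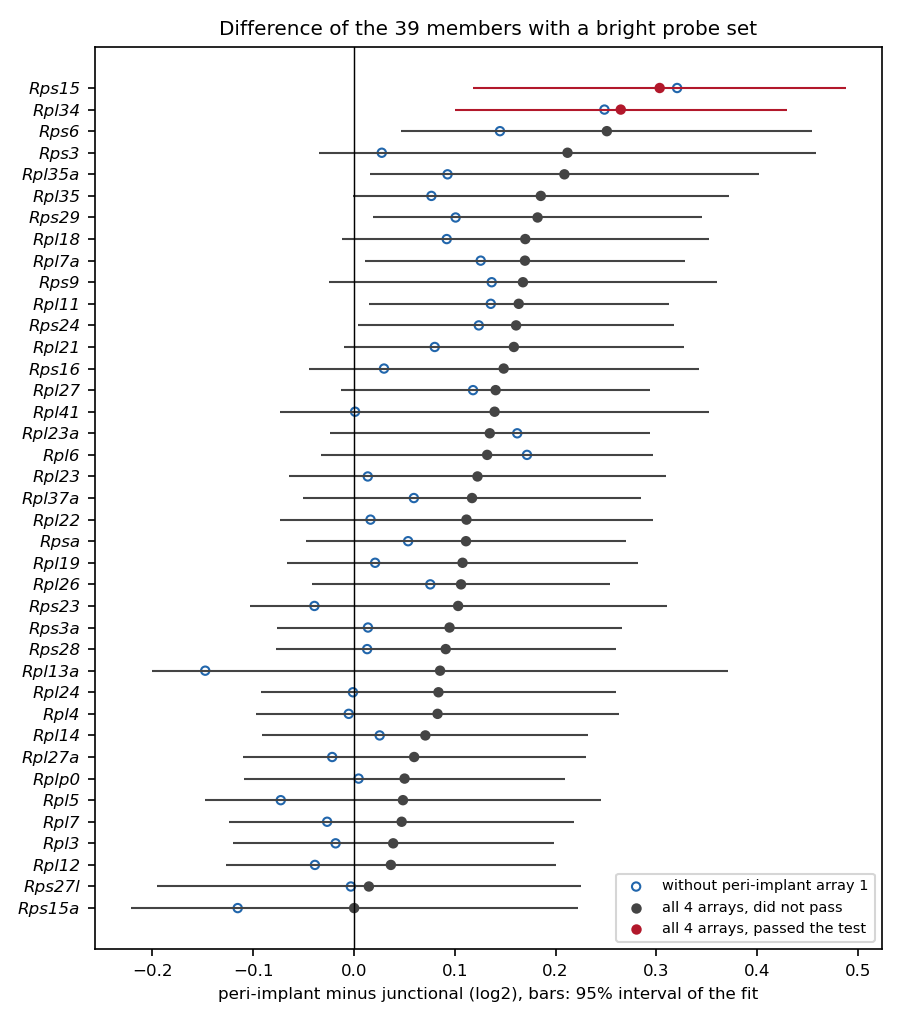
Difference, peri-implant minus junctional (log2), of the 39 bright members with the 95% interval of the limma fit (filled points and bars; red, passed the test) and the same without peri-implant array 1 (open circles). Without that array the open circles of most members lie nearer to 0, and 28 of 39 are positive.

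Members with known roles beyond the mass of the subunit gave small differences. Rplp0, the base of the stalk that recruits elongation factors, had 14.17 and 14.08 on the peri-implant arrays, against 14.06 and 14.09 on the junctional arrays, a difference of 0.05 (95% interval -0.11 to 0.21). Its stalk partners Rplp1 and Rplp2 are not among the members. Rpl5 and Rpl11, which with 5S ribosomal RNA form a particle that can bind Mdm2 and so stabilize p53, differed by 0.05 (-0.15 to 0.25) and 0.16 (0.01 to 0.31), with adjusted p = 0.77 and 0.14. For Rpl11 the arrays did not overlap, at 14.76 and 14.71 on the peri-implant side, against 14.55 and 14.59 on the junctional side. Rpsa, the small subunit protein also known as the laminin receptor precursor, had 14.76 and 14.65 on the peri-implant arrays, against 14.57 and 14.61 on the junctional arrays, and a difference of 0.11 (-0.05 to 0.27). The other probe sets of Rpsa gave differences of 0.16 and 0.31.

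Paralogues could be compared for a few members, each within its own probe set. Rps27l, a paralogue of Rps27 known as a p53 target, had 11.23 and 11.20 on the peri-implant arrays, against 11.16 and 11.24 on the junctional arrays (difference 0.01, 95% interval -0.20 to 0.22). Rpl3, whose protein reaches into the catalytic centre, differed by 0.04 (-0.12 to 0.20), and Rpl7 by 0.05 (-0.12 to 0.22). Rpl7l1, a paralogue of Rpl7 with a symbol outside the rule, had 11.16 and 11.08 on the peri-implant arrays, against 10.83 and 10.85 on the junctional arrays, a difference of 0.28 that did not pass (adjusted p = 0.0962). Rpl22, which has a separate role in lymphocyte development in mice, differed by 0.11 (-0.07 to 0.30). Of 5 members with more than 1 probe set, Rpl3 and Rpl14 had probe sets that differed in direction: a second one of Rpl3 gave -0.415 and a second one of Rpl14 gave -0.10, both dimmer than the one used.

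The members with the brightest probe sets were Rpl41, Rps29, Rps23, Rpl13a and Rpl27a. Rpl41, the shortest ribosomal protein, had 15.88 and 15.60 on the peri-implant arrays, against 15.54 and 15.66 on the junctional arrays, so that its groups overlapped. Rps23, of the decoding centre, differed by 0.10, and Rpl13a, which in human monocytes also silences inflammatory mRNAs when released from the ribosome, by 0.09. Without peri-implant array 1 these were -0.04 and -0.15, and without peri-implant array 2 they were 0.25 and 0.32, where Rpl13a passed (limma, adjusted p = 0.0419). Rpl13a had the widest spread of the bright members, with 15.57 and 15.11 on the peri-implant arrays, against 15.27 and 15.24 on the junctional arrays. Rpl27a differed by 0.06. The bright members whose values have not been described in full were Rpl4, Rpl6, Rpl7a, Rpl12, Rpl14, Rpl19, Rpl21, Rpl23, Rpl23a, Rpl24, Rpl26, Rpl27, Rpl37a, Rps3a, Rps9, Rps15a, Rps16, Rps24 and Rps28, and their differences ran from 0.0002 to 0.17.

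The start of the gene is where the family's shared TOP tract would lie. RefSeq promoter windows of the assembly GRCr8, 250 bases before to 50 after an annotated transcript start, were matched to 37 of the 44 members by gene identifier. Only the first listed window of each gene was used, so the counts below depend on that choice. It need not lie at the outer end of the gene: Rpl19 begins at 83514509 in the gene table, before the window printed below. A C at the annotated start followed by at least 4 pyrimidines was found in 11 of the 37 (29.7%), against 2.63% of 27457 promoters. Allowing the tract to begin up to 10 bases to either side gave 67.6% of members, against 28.8% of all promoters. The sequences below run from 10 bases before to 20 from the annotated start on. Capitals mark the tract from that start on, and pyrimidines before it stay in lower case. Shown are the bright members that passed the test, the stalk base Rplp0, Rpl35a and Rpl19. Rps6 and Rps13, which have no tract at that position, follow.

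Rps15, chr7:10068096-10068125, minus strand: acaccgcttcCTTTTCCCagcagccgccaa
Rpl34, chr2:221962264-221962293, minus strand: tccttttcctCTTCCggggacggtgcttag
Rpl35a, chr11:81235002-81235031, minus strand: tcttgccttcCTCTTTCCgccatcttggcg
Rplp0, chr12:46718371-46718400, minus strand: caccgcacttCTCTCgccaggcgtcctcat
Rpl19, chr10:83519054-83519083, plus strand: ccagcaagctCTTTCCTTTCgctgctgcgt
Rps6, chr5:106420521-106420550, minus strand: ctcctaggcggtcggctgtgtcaagatgaa
Rps13, chr1:180009641-180009670, minus strand: ttcctacctcgttctctctttgcttccaga

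Counted from the annotated start on, the tracts were 5 to 10 bases long. Pyrimidines before that start were not counted, and in Rpl34 all 10 bases before it are pyrimidines. Rps6 and Rps13 have no C at the annotated start, and in both a tract begins within 10 bases of it. The match of a tract to an annotated start depends on how well that start was mapped. Bright members with a tract at the start (9) had a median difference of 0.11, with a range of 0.05 to 0.30, and those without (24) one of 0.11, with a range of 0.0002 to 0.25. Of other motifs in the whole promoter window, GGGCGG on either strand was present in 64.9% of the members, against 34.9% of all promoters, and CCGGAA on either strand in 35.1%, against 15.8%. The sequence TATAAA on the gene's strand, 40 to 16 bases before the start, was present in only 2 of the 37 members (5.41%), against 1.5%. The motifs were counted separately. Members with a position in the gene table (42) lay on 13 chromosomes, with at most 8 on one of them, chromosome 1. Rps15 spans 10066572 to 10068167 on chromosome 7, Rpl34 221958551 to 221962309 on chromosome 2 and Rps13 180007230 to 180009660 on chromosome 1, and all are protein-coding.

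A further 33 probe sets list a ribosomal protein symbol among several symbols, mostly copies and pseudogenes of the same gene. They cover 27 ribosomal proteins, of a list of 79, that are not among the members, and are not assigned to genes here. Their median difference was 0.13, and 0.10 without peri-implant array 1, so it depended less on that array than that of the members. Both peri-implant arrays lay above both junctional arrays in 23 of the 33 and below them in 2, against 31.2% and 25.2% of all genes. Those shares are over genes with 1 probe set each, and none was taken over all probe sets. In 32 of them, those with a mean of at least 9, differences ran from -0.22 to 0.28. Adding the 33 to the members gave 4 higher (4.82%) and 0 lower of 83 probe sets, against 4.74% of all 31042 probe sets called higher in that fit, an alternative chosen after seeing the data. Because ribosomal proteins have many near-identical copies in the genome, signals of single-symbol probe sets can also hold copies that the annotation does not list.

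Other lists of the translation machinery held genes called in either direction, as did all genes, of which 7.39% were called higher and 5.34% lower. Of 73 mitochondrial ribosomal proteins, which build the separate ribosome of mitochondria, 7 rose (9.59%) and 3 fell (4.11%), with a median difference of 0.08, so both shares were near those of all genes. Mrpl47 had 9.43 and 9.45 on the peri-implant arrays, against 8.26 and 8.83 on the junctional arrays. Mrpl50 rose by 0.73, while Mrpl3 fell by 0.77 and Mrps2 fell by 0.72. Of 78 measured genes of ribosome biogenesis, 10 rose (12.8%) and 2 fell (2.56%), with a median of 0.11. Pes1, which matures the large subunit RNA, had 9.69 and 9.50 on the peri-implant arrays, against 8.38 and 8.68 on the junctional arrays, and rose 2.09-fold (limma, adjusted p = 0.0071). Taf1c, of the RNA polymerase I initiation complex, rose by 1.26, but both junctional arrays stood just above background. Polr1e, a subunit of RNA polymerase I, fell by 1.35, and Riok2, a kinase that finishes the small subunit, fell by 1.25.

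Among 34 measured initiation factors 3 rose and 3 fell (8.82% each), with a median of -0.03. The eIF3 subunit Eif3d had 12.16 and 12.19 on the peri-implant arrays, against 11.74 and 11.73 on the junctional arrays, and Eif2b4, of the exchange factor eIF2B, rose by 0.56. Eif3j, a loosely bound eIF3 subunit, fell by 0.68 and Eif5b, which joins the subunits, by 0.34. Of 14 elongation and termination genes 3 rose (21.4%) and 0 fell, with a median of 0.04. They were Etf1, the release factor (0.41), and Eef1d (0.33) and Eef1b2 (0.31), which recharge elongation factor 1A with GTP. Gspt2, a paralogue of the release factor Gspt1, differed by -0.80, did not pass and was under background on every array but junctional array 2 (6.53). Eef1b2 and Eef1d are also on a list of 11 measured other mRNAs known for a TOP tract, where these 2 rose (18.2%), 0 fell and the median was 0.09. Eef1b2 had 14.02 and 13.91 on the peri-implant arrays, against 13.62 and 13.69 on the junctional arrays. Nap1l1, a histone chaperone, differed by 0.30 and Rack1, a scaffold on the small subunit, by 0.19, and neither passed (adjusted p = 0.08 and 0.174).

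Of 22 measured regulators of ribosome production 1 rose and 1 fell (4.55% each), with a median of 0.03. Deptor, an inhibitor within the mTOR complexes, had 9.21 and 9.18 on the peri-implant arrays, against 9.90 and 10.18 on the junctional arrays, and fell by 0.84 (limma, adjusted p = 0.0088). Mxd4, which opposes Myc at its target genes, had 11.09 and 11.03 on the peri-implant arrays, against 10.41 and 10.52 on the junctional arrays, and rose by 0.60 (adjusted p = 0.0075). Mlst8, a core mTOR subunit, differed by -0.88 and did not pass (adjusted p = 0.0837), and Mycn was under background on all arrays. In all, 33 genes of these lists passed, and their shares by list are given above beside those of all genes (7.39% higher, 5.34% lower). With the default prior 0 of them passed, as did 0 of all genes, and fewer passed when any 1 array was left out.

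**Figure D5:**
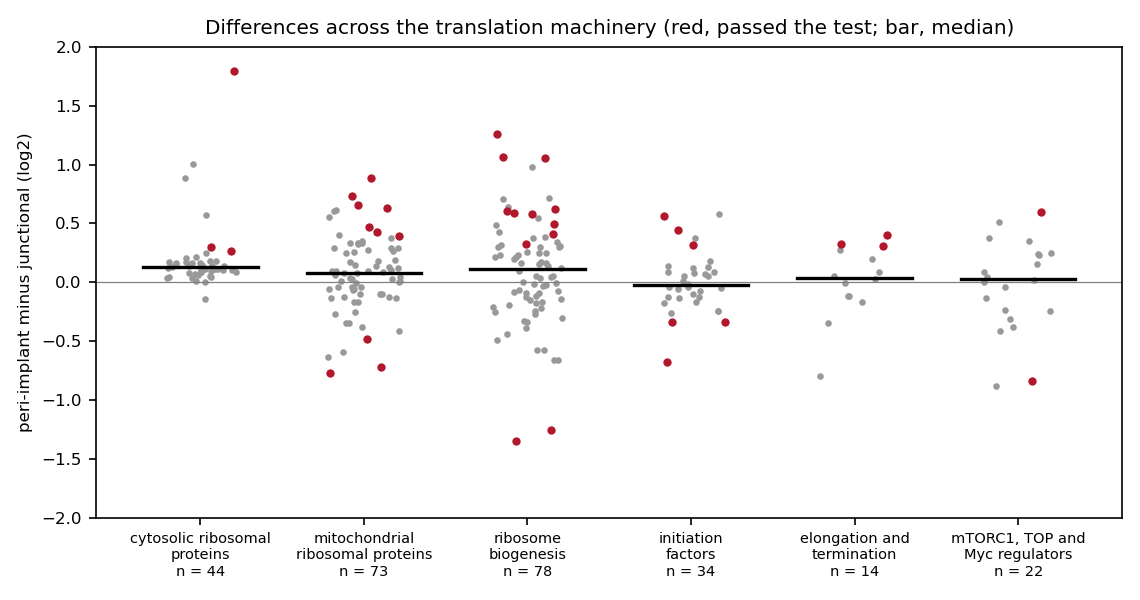
Difference, peri-implant minus junctional (log2), of each gene in the cytosolic ribosomal protein group and in 5 lists of the translation machinery (points; red, passed the test; black bars, medians; 1 regulator, Mycn, lies outside the axis). The 39 bright cytosolic ribosomal proteins lie from 0.0002 to 0.30, 4 dim members lie above 0.5 and the dim Rpl3l lies at -0.15. The other lists spread to both sides of 0. Median signals are 14.5 for the members and 9.56 to 11.6 for the other lists, and spread between replicates falls with signal. The part of signal in this contrast was not tested.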

How the data were processed

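The deposited values are log2 signals on 4 arrays, of which 31042 probe sets were tested. For the authors' software and normalization, the labels used here name none. From the values, every array has a trimmed mean linear signal of 500.19 (2% cut at each end) and a log2 floor of 0. Per the labels' protocols, RNeasy Micro extraction with DNase I was followed by Ovation amplification (NuGEN) and biotin labelling. Values were used without further normalization. Control probe sets (57) were left out of tests.

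Genes were taken from the platform annotation, 1 probe set per gene by highest mean. The epithelia were compared by limma 3.58.1 under R 4.3.3, using lmFit and eBayes (trend and robust both on). Tests were two-sided, the fit left 2 residual degrees of freedom, and p-values were adjusted over all genes by Benjamini-Hochberg. The trend was used because the median SD between replicates was 1.47 for genes with a mean up to 3 and 0.08 above 11. The fit was tested on simulated data with shifts larger than any difference of the bright members and without an offset of a whole array. That test therefore does not bear on the calls of bright members. An exact permutation test of 2 against 2 arrays cannot give a p below 0.333. The members, the lists and the prior were chosen with earlier results of these data known. List members were matched by symbol, then by current symbol through the gene identifier. Named were members past the test, members without overlap by size up to 10, the 5 brightest and 5 dimmest, members with known special roles, paralogues, and up to 4 genes per list. Alternatives were other priors, a replicate block, leaving out each array, 4 scalings, 2 treatments of low signals and 3 choices of probe sets.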

Additional observations from a re-analysis of the deposited data

Results flagged for a closer look

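The control probe set for 5S ribosomal RNA, which no comparison used, gave a signal above background: 7.64 and 7.77 on the peri-implant arrays, against 6.72 and 7.35 on the junctional arrays, a difference of 0.67. It lies outside the genes tested, and the difference was not tested. Groups of 2 arrays are too small for a check of single outlying samples.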

How the results depend on the processing

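The count of all genes called, 1810, was 0 with the default prior, 241 to 398 with 1 array left out and 2762 when all probe sets were tested singly, also with the several-symbol probe sets added. The 3 members called higher became 0 with the default prior, 1 without the robust prior, under median centring, under hybridization control scaling or with low values raised to background, 5 under cyclic loess and 0 to 2 with 1 array left out, while 0 members were called lower in each alternative run. The 33 called genes of the companion lists became 0 with the default prior, 17 under median centring, 8 under hybridization control scaling and 0 to 3 with 1 array left out. The members' median difference, 0.13, was 0.046 under quantile normalization and -0.0097 under hybridization control scaling. That scaling adds 1 constant per array, so the members' distance from the median of all genes (-0.09) remained 0.08, and 43% of called genes were higher, against 58.1% without it. With the replicate number as a block, 2470 genes and 3 members were called. The deviations of same-numbered arrays correlated at 0.0613 over genes above background, a value that cannot tell whether those arrays were paired. The labels state no pairing, so the main fit used no block. The cause of these changes was not tested, except that fits without an array have fewer samples. Of 653 values of single members under 15 alternatives, 58 changed sign, all of them for members that did not pass.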
